A study of Mus musculus with 4 samples.

Results

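CD45, encoded by Ptprc, and 9 other protein tyrosine phosphatases that act in leukocytes were examined in mouse MLL-AF9 acute myeloid leukaemia. The members were the 10 rows of the deposited expression table named Ptprc, Ptpre, Ptprj, Ptpn1, Ptpn2, Ptpn6, Ptpn11, Ptpn7, Ptpn18 and Ptpn22, out of 24497 features in all, and each of them was among the 11866 features tested. Leukaemic CD45.2+ bone marrow cells carrying the MLL-AF9 fusion had been passed to secondary recipients irradiated with 320 rads, and treatment began 1 week later. The CS1 group received CS1, which the labels call an FTO inhibitor (FTO is a demethylase acting on RNA), by intraperitoneal injection at 5 mg/kg on alternate days for 20 days; the PBS group received PBS alone. Both groups carried the same leukaemia and were irradiated, and poly(A) RNA was sequenced from spleen cells enriched for CD45.2 on magnetic beads, with 2 libraries in each group. Ptprc therefore encodes the very antigen used to collect the cells. No source used here gives the strain, age or sex of the mice or the CD45 allele of the recipients, and irradiated recipients keep some cells of their own. One label of CS1 replicate 2 gives its treatment as CS2, whereas its title and description give CS1, and it was counted as CS1. Nothing in the labels ties replicates to different mice, so the p-values cover the spread between these libraries alone, which may be technical.

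Protein tyrosine phosphatases remove phosphate from tyrosine residues and so set the gain of signals that kinases start. CD45 is a membrane phosphatase carried by nearly all nucleated blood cells. It removes the inhibitory phosphate from the tail of Src-family kinases, which keeps these kinases ready to fire. The cytosolic enzymes act elsewhere in the same circuits: SHP-1 and SHP-2 dock on phosphorylated receptors, PTP1B and TC-PTP act on receptor and JAK kinases, and the PEST-type enzymes work together with the kinase CSK.

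Treatment with CS1 went with lower transcript levels of all 3 receptor-type members and of Ptpn1, and with modestly higher levels of 3 cytosolic members. Ptpn1 fell to 0.46 and Ptprc to 0.541 of their PBS means, while Ptpn18 rose to 1.43 times its PBS mean. Ptpn6, the most abundant member in either group, did not pass the test. By limma, with a call at an adjusted p under 0.05, 3 members were higher in CS1, 4 were lower and 3 were not called. Over all tested features 67.0% were called, 35.3% higher and 31.6% lower, so the 70% called among the members lies near the background and is not a result about them. The median log2 fold change was -0.13 over the members and 0.04 over all tested features, and the median absolute log2 fold change was 0.28 over the members and 0.31 over all tested features. The groups did not overlap for 9 of the 10 members, against 84.4% of all tested features. Without overlap, CS1 lay above PBS in 45.1% of all tested features and below it in 39.3%.

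**Figure D1:**
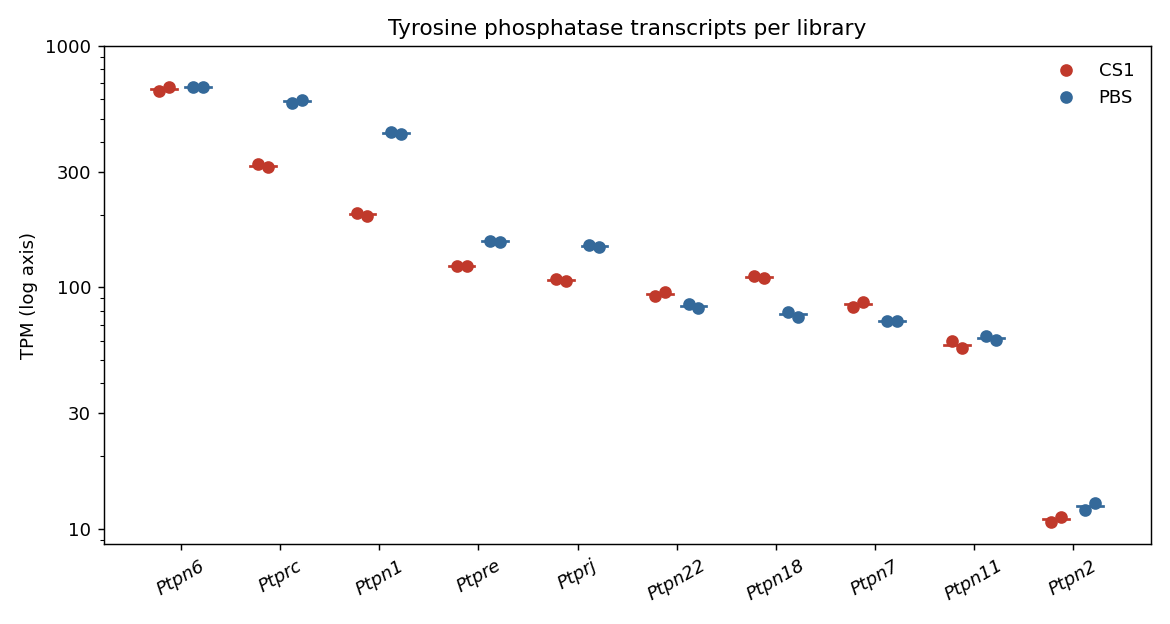
TPM on a log axis for each of the 10 phosphatase genes in the 2 CS1 libraries (red, left) and the 2 PBS libraries (blue, right), with short bars at the group means and genes ordered by their PBS mean. The pairs of points lie close together, and the widest gaps between groups are those of Ptpn1 (201 TPM in CS1 and 435 TPM in PBS) and Ptprc (319 TPM in CS1 and 590 TPM in PBS).

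Ptprc (chromosome 1, 138062861 to 138175708, minus strand, mm10) was measured at 323 and 315 TPM in the CS1 libraries, against 583 and 597 TPM in the PBS libraries. TPM is a share of all transcripts corrected for transcript length. Both CS1 libraries lay well below both PBS libraries, and the gap between groups was many times the gap within either. The log2 fold change was -0.89 ± 0.0245 (SE, 2 libraries a group, limma adjusted p = 4.66e-06), and 3.57% of all tested features had a log2 fold change as low or lower. In bulk RNA, fewer cells of a type and less RNA per cell cannot be told apart. The table holds 1 value per gene, so neither the CD45.1 and CD45.2 alleles nor the splice forms of Ptprc, for which GENCODE lists 13 transcripts, could be separated. Transcript level is also no measure of CD45 protein on the surface, which is what the beads bind.

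The other receptor-type members moved in the same direction by less. Ptprj (chromosome 2, 90429754 to 90580647, minus strand), which encodes CD148, a phosphatase that shares with CD45 the task of activating Src-family kinases in mouse macrophages, stood at 108 and 107 TPM in CS1, against 150 and 147 TPM in PBS. The CS1 libraries were the lower pair and the groups did not overlap (log2 fold change -0.47 ± 0.026, SE, adjusted p = 3.94e-05). Ptpre (chromosome 7, 135537481 to 135686293, plus strand) encodes PTP epsilon, which is made both as a membrane and as a cytosolic form. It was measured at 123 and 122 TPM in CS1, against 156 and 155 TPM in PBS, again without overlap (log2 fold change -0.34 ± 0.0243, SE, adjusted p = 9.66e-05). Ptpre shares 209 exon bases with 5830432E09Rik on the opposite strand, which was itself measured at 5.49 and 5.40 TPM in CS1 and 7.40 and 7.56 TPM in PBS. No source used here says whether reads were counted by strand, so the value of Ptpre is uncertain to that extent. The same holds for Ptpn6 and Ptpn18, whose exons overlap Gm20531 and Gm28417 on the opposite strand. Neither of those features was among the ones tested. Together the 3 receptor-type members summed to 554 and 543 TPM in CS1, against 888 and 899 TPM in PBS.

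Ptpn1 and Ptpn2 encode PTP1B and TC-PTP, close relatives that restrain cytokine and growth factor receptors. PTP1B sits on the endoplasmic reticulum and acts on the insulin receptor and on JAK2 and TYK2. Ptpn1 (chromosome 2, 167932057 to 167979385, plus strand) had 203 and 198 TPM in CS1, against 438 and 433 TPM in PBS. This was the largest change among the 10 members (log2 fold change -1.12 ± 0.0239, SE, adjusted p = 2.84e-06), and 1.88% of all tested features had one as low or lower. TC-PTP, which is largely nuclear and acts on JAK1 and JAK3, showed a different picture at the transcript level. Ptpn2 (chromosome 18, 67665511 to 67724595, minus strand) was the least abundant member in both groups, with 10.6 and 11.2 TPM in CS1, against 11.96 and 12.77 TPM in PBS. Its groups did not overlap, but the difference was not called (log2 fold change -0.17, 95% confidence interval -0.35 to 0.02, adjusted p = 0.0954). After quantile normalization it passed, at a log2 fold change of -0.28 (adjusted p = 0.0172). The relatives thus gave a large fall and a small uncalled difference; the difference between these genes was not tested.

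Ptpn6 and Ptpn11 encode SHP-1 and SHP-2, which both dock through paired SH2 domains on phosphorylated receptor tails. SHP-1 mostly ends signals in blood cells, whereas SHP-2 helps growth factor receptors to activate RAS and is a target of activating mutations in human myeloid leukaemia. Ptpn6 (chromosome 6, 124720707 to 124738714, minus strand) was measured at 648 and 678 TPM in CS1, against 676 and 673 TPM in PBS. The CS1 libraries lay on either side of the PBS libraries, making Ptpn6 the member whose groups overlapped. Its log2 fold change was -0.03 with a 95% confidence interval of -0.09 to 0.04 (adjusted p = 0.419). The direction depended on the setting: after quantile normalization Ptpn6 was higher in CS1 and passed the test (log2 fold change 0.08, adjusted p = 0.0170), and without CS1 replicate 1 its log2 fold change was 0.01 (adjusted p = 0.821). Ptpn11 (chromosome 5, 121130533 to 121191397, minus strand) had 59.7 and 56.1 TPM in CS1, against 62.9 and 60.6 TPM in PBS. The CS1 libraries were just below the PBS libraries and the difference did not pass (log2 fold change -0.09, 95% confidence interval -0.20 to 0.02, adjusted p = 0.112).

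Ptpn18, Ptpn22 and Ptpn7 made up the higher group. Ptpn18 and Ptpn22 encode PEST-type phosphatases; the Ptpn22 product binds CSK and switches off Src-family kinases in T cells. Ptpn18 (chromosome 1, 34459762 to 34475733, plus strand) was measured at 111 and 109 TPM in CS1, against 78.9 and 75.4 TPM in PBS. Both CS1 libraries lay above both PBS libraries (log2 fold change 0.51 ± 0.0341, SE, adjusted p = 7.59e-05), and 16.5% of all tested features had a log2 fold change as high or higher. Ptpn7 (chromosome 1, 135132700 to 135145317, plus strand), whose product dephosphorylates the MAP kinases ERK and p38, had 83.0 and 86.9 TPM in CS1, against 72.2 and 72.5 TPM in PBS. The rise was small and the groups did not overlap (log2 fold change 0.23 ± 0.0347, SE, adjusted p = 0.00194). Ptpn22 (chromosome 3, 103859795 to 103912247, plus strand) had 92.3 and 95.2 TPM in CS1, against 85.1 and 82.2 TPM in PBS, the smallest called change of the set (log2 fold change 0.16 ± 0.0338, SE, adjusted p = 0.00685). With no filter on low values its adjusted p was 0.0687, so that call was lost.

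**Figure D2:**
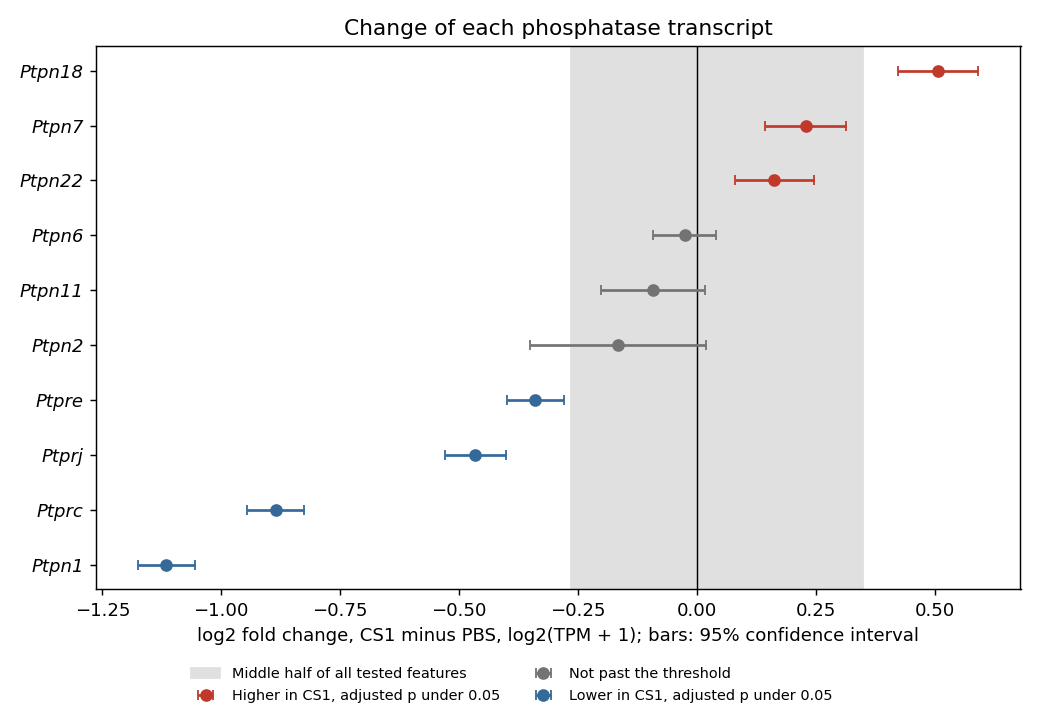
Log2 fold change of each member, CS1 minus PBS, on the log2(TPM + 1) scale, with 95% confidence intervals from limma; red marks a rise, blue a fall and grey no call, and the grey band runs from the 25th to the 75th percentile of all tested features (-0.26 to 0.35). Ptpn1, Ptprc, Ptprj and Ptpre lie below the band, Ptpn18 lies above it, and the others lie inside.

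The mean level of the most abundant member was 60.8 times that of the least abundant in CS1 and 54.6 times in PBS, and most of the order was shared between groups. Ptpn6, Ptprc, Ptpn1 and Ptpre held the first to the fourth places in both CS1 and PBS, and Ptpn7, Ptpn11 and Ptpn2 the last ones. Between them, the order in CS1 was Ptpn18, Ptprj and Ptpn22, against Ptprj, Ptpn22 and Ptpn18 in PBS. No neighbours in either order had overlapping library values, but some lay close: in CS1 the lowest Ptpn18 library was at 109 TPM and the highest Ptprj library at 108 TPM.

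The summed TPM of the 10 genes was 1769 ± 10.9 in CS1 and 2311 ± 4.08 in PBS (SD, n = 2 each). Most of that gap lay in a pair of genes. Ptprc and Ptpn1 together summed to 519 ± 9.83 TPM in CS1 and 1025 ± 5.85 TPM in PBS (SD, n = 2 each), whereas the other 8 members summed to 1250 ± 20.8 TPM in CS1 and 1286 ± 9.93 TPM in PBS (SD, n = 2 each). Within the set, Ptprc made up 18.3% and 17.7% of the summed TPM in CS1, against 25.2% and 25.9% in PBS. Ptpn1 made up 11.5% and 11.1% in CS1, against 18.9% and 18.8% in PBS. Ptpn6 therefore took a larger share without a called change of its own, at 36.8% and 38.1% in CS1, against 29.2% and 29.2% in PBS. With 2 libraries against 2 no exact permutation test can reach the threshold, so these shares are given as values.

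**Figure D3:**
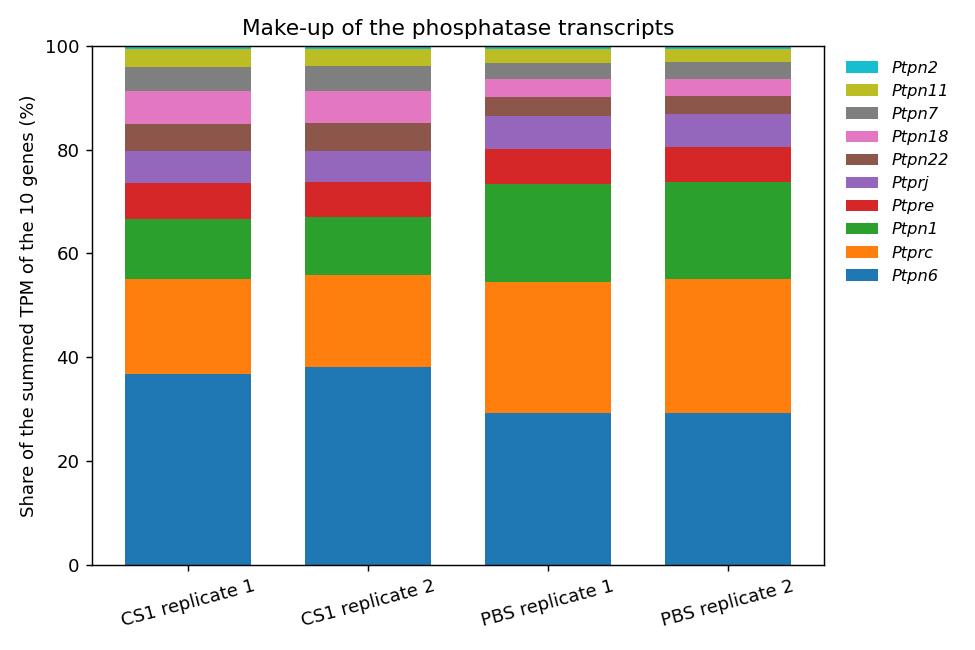
Share of the summed TPM of the 10 genes taken by each gene, in percent, in the 2 CS1 and the 2 PBS libraries; each bar adds to 100%. The Ptprc segment (18.3% and 17.7% in CS1, 25.2% and 25.9% in PBS) and the Ptpn1 segment are narrower in both CS1 bars, and the Ptpn6 segment is wider.

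Set against Ptprc in the same library, every other member except Ptpn1 stood higher in CS1. The ratio of Ptpn6 to Ptprc TPM was 2.01 and 2.15 in CS1, against 1.16 and 1.13 in PBS. For Ptpn18 it was 0.344 and 0.347 in CS1, against 0.135 and 0.126 in PBS. For Ptpn1 it was 0.629 and 0.629 in CS1, against 0.752 and 0.725 in PBS. These ratios carry the fall of Ptprc in their denominator and are no separate evidence on the other genes.

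Around the start sites of the genes that moved most, promoter sequence is shown to compare base composition and short motifs; it is from RefSeq on GRCm38.p6, which shares its coordinates with mm10. RefSeq gave 15 start-site windows for 9 of the 10 genes. The stretches run from 250 to 51 bases before the RefSeq start, 5′ to 3′ on the strand of the gene. GENCODE places the outer gene starts, given above with each gene, elsewhere: the Ptpn18 stretch lies before its gene start, the Ptprc stretch 153 to 352 bases after it, in an intron of a non-coding transcript, and the Ptpn1 stretch 20 to 219 bases after it, in an exon of a non-coding transcript. Of the 15 windows 4 lie before the GENCODE start of their gene, 2 across it and 9 after it. Capitals mark GAGGAA, the core bound by the myeloid factor SPI1, TATAAA, the letters of the TATA box, and GGGCGG, the GC box, each searched on both strands. In the Ptprc stretch TATAAA is on the opposite strand and so reads TTTATA, which does not show a working TATA box.
Ptprc, chr1:138175356-138175555, minus strand: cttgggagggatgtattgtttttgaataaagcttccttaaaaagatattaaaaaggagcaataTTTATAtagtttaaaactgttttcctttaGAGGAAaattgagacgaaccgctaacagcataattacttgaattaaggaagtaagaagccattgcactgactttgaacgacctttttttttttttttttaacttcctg
Ptpn1, chr2:167932077-167932276, plus strand: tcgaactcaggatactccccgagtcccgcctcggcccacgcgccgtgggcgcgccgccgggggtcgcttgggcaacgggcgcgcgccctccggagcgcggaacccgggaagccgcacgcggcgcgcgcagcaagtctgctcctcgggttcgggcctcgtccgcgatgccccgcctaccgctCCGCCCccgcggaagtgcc
Ptpn18, chr1:34459496-34459695, plus strand: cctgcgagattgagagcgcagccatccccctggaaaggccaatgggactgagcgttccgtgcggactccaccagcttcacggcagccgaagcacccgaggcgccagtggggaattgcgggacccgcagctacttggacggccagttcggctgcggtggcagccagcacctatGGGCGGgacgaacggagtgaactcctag
The genes with the largest falls had unlike promoters, with a GC content of 30.5% for the Ptprc stretch and 77.5% for the Ptpn1 stretch, against 65.5% for the Ptpn18 stretch. Over the full 250 bases before the RefSeq start, GAGGAA was present in 9 of the 15 windows of these genes, against 23.3% of 32851 RefSeq windows, and GGGCGG in 8 of the 15, against 32.7%. TGTGGT, the core of RUNX sites, was present in 1 of the 15 windows, against 14.0% of all windows. CACGTG, the E-box read by MYC, was in 0 of the 15 windows, against 6.02%. TATAAA was in 2 of the 15 windows, against 12.4%. By gene, GAGGAA was present in 6 of the 9 genes with windows and GGGCGG in 7, with no count by gene over all windows to compare. Windows of one gene can overlap and are not separate genes, and a match describes the letters only.

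The 10 members held most of the classical tyrosine phosphatase transcripts in these cells. The family as listed here has 38 genes, of which 21 were tested, and the 17 others did not exceed 0.51 TPM in any library. The members made up 85.1% and 85.4% of the family's summed TPM in CS1, against 86.8% and 86.7% in PBS. Among the other non-receptor enzymes 0 of 5 tested genes rose and 2 fell, against 35.3% and 31.6% of all tested features. Ptpn12, which encodes the ubiquitous PTP-PEST, fell to 33.7 and 31.7 TPM in CS1, against 83.3 and 83.1 TPM in PBS (log2 fold change -1.32 ± 0.0422, SE, adjusted p = 6.59e-06), a larger fall on this scale than that of any member. Ptpn9 had a log2 fold change of -0.31. Among the other receptor-type enzymes 4 of 6 tested genes rose and 1 fell. The rises include genes at very low levels, Ptprr (means of 1.75 TPM in CS1 and 0.155 TPM in PBS) and Ptpru (2.565 and 0.6 TPM). Ptprs rose to 79.3 and 76.9 TPM in CS1, against 61.5 and 61.4 TPM in PBS, and the low-level gene Ptprv had a log2 fold change of 0.50. Ptpro, a receptor-type enzyme found in macrophages, fell to 49.5 and 47.1 TPM in CS1, against 65.2 and 66.7 TPM in PBS. Ptpra, a widely expressed activator of Src-family kinases, did not pass, at 92.5 and 93.3 TPM in CS1 and 93.1 and 91.5 TPM in PBS (adjusted p = 0.786); it was named after its values were seen. The count of called receptor-type genes changed to 3 with a filter at 5 TPM (2 higher and 1 lower of 4 tested). Without a filter it was 8 (7 higher and 1 lower of 18 tested).

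Most of the listed kinase genes were lower in CS1, among them direct substrates of these phosphatases. Of 9 tested Src-family and proximal kinase genes 7 fell and 1 rose, with a median log2 fold change of -0.53, against 0.04 over all tested features. Of all tested features 31.6% were called lower and 35.3% higher. Fgr, a Src-family kinase of mature myeloid cells, fell to 161 and 161 TPM in CS1, against 423 and 414 TPM in PBS (log2 fold change -1.37 ± 0.0228, SE, adjusted p = 1.88e-06). Lyn, the main Src-family kinase in many myeloid cells, fell to 317 and 315 TPM in CS1, against 564 and 562 TPM in PBS. Fyn was the gene that rose, to 18.2 and 20.6 TPM in CS1, against 12.8 and 13.6 TPM in PBS, a call lost with no filter on low values (adjusted p = 0.0558). Csk, the kinase that adds the inhibitory phosphate which CD45 removes, fell as well, to 168 and 167 TPM in CS1, against 252 and 260 TPM in PBS; it was named after its values were seen. Among JAK, STAT and MAP kinase genes 11 of 12 fell and 0 rose (median log2 fold change -0.45), against 10 and 1 after quantile normalization. Stat6, the factor that interleukin-4 activates, fell to 119 and 118 TPM in CS1, against 212 and 213 TPM in PBS (log2 fold change -0.84).

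Inhibitory receptors, which carry the phosphotyrosine motifs on which SHP-1 and SHP-2 dock, were called in all 17 tested cases, with 11 lower and 6 higher in CS1 (median log2 fold change -0.32). Pilra fell to 92.4 and 95.5 TPM in CS1, against 225 and 214 TPM in PBS, and Ceacam1 to 183 and 177 TPM in CS1, against 391 and 397 TPM in PBS. Both are paired-type or adhesion receptors of myeloid cells that can recruit SHP-1. Cd72 rose to 10.2 and 11.0 TPM in CS1, against 4.01 and 3.65 TPM in PBS, and Siglecg to 26.4 and 26.1 TPM in CS1, against 11.4 and 11.4 TPM in PBS; both receptors are best known from B cells. Adaptors and direct partners of the phosphatases gave 4 of 12 higher and 4 lower (median log2 fold change -0.06), against 3 higher and 6 lower after quantile normalization. The main counts of the adaptors lie near the shares over all tested features and are not a result about them. Ptprcap, which encodes a small membrane protein that associates with CD45, rose to 16.53 and 17.03 TPM in CS1, against 7.82 and 10.0 TPM in PBS (log2 fold change 0.85 ± 0.116, SE, adjusted p = 0.00122), opposite in direction to Ptprc. That call was lost with no filter on low values (adjusted p = 0.0604). Cd2bp2 had a log2 fold change of 0.23. Cd2ap, which encodes a cytoskeletal adaptor, fell to 22.8 and 21.7 TPM in CS1, against 47.8 and 48.5 TPM in PBS. Pag1, the membrane anchor of CSK, had a log2 fold change of -0.59.

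Log2 fold changes of the 8 tested regulators of the alternative exons of Ptprc lay between -0.20 and 0.15. Of these regulators 3 rose and 4 fell, against 35.3% and 31.6% of all tested features. This balance depended on the scaling: after quantile normalization 4 rose and 1 fell. Hnrnpll, which promotes skipping of these exons in lymphocytes, fell to 51.4 and 51.2 TPM in CS1, against 57.9 and 60.2 TPM in PBS. Sfpq had a log2 fold change of 0.15, and of 0.29 after quantile normalization. Ptbp1 had one of -0.18, which was not called after quantile normalization (adjusted p = 0.0613), and Hnrnpl one of 0.12 (0.27 after quantile normalization), which was not called with no filter (adjusted p = 0.0620) or with the variance trend off (adjusted p = 0.06). Of 9 other phosphatase genes of leukocyte signalling 2 rose and 3 fell (3 and 3 after quantile normalization), a count that ranged from 2 to 4 called genes when single libraries were left out. Inppl1, which encodes the lipid phosphatase SHIP2, fell to 11.4 and 12.9 TPM in CS1, against 27.3 and 27.3 TPM in PBS. Its relative Inpp5d, which encodes SHIP1 of blood cells, had a log2 fold change of 0.09 (adjusted p = 0.0167; 0.21 after quantile normalization), and this call was lost without CS1 replicate 1, without PBS replicate 1 or without PBS replicate 2 (adjusted p = 0.0758, 0.0671 and 0.0733). Ubash3b fell, with a log2 fold change of -0.61. Acp1 had a log2 fold change of 0.24, and its call was lost without CS1 replicate 1 (adjusted p = 0.0788) or without PBS replicate 1 (adjusted p = 0.0677).

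**Figure D4:**
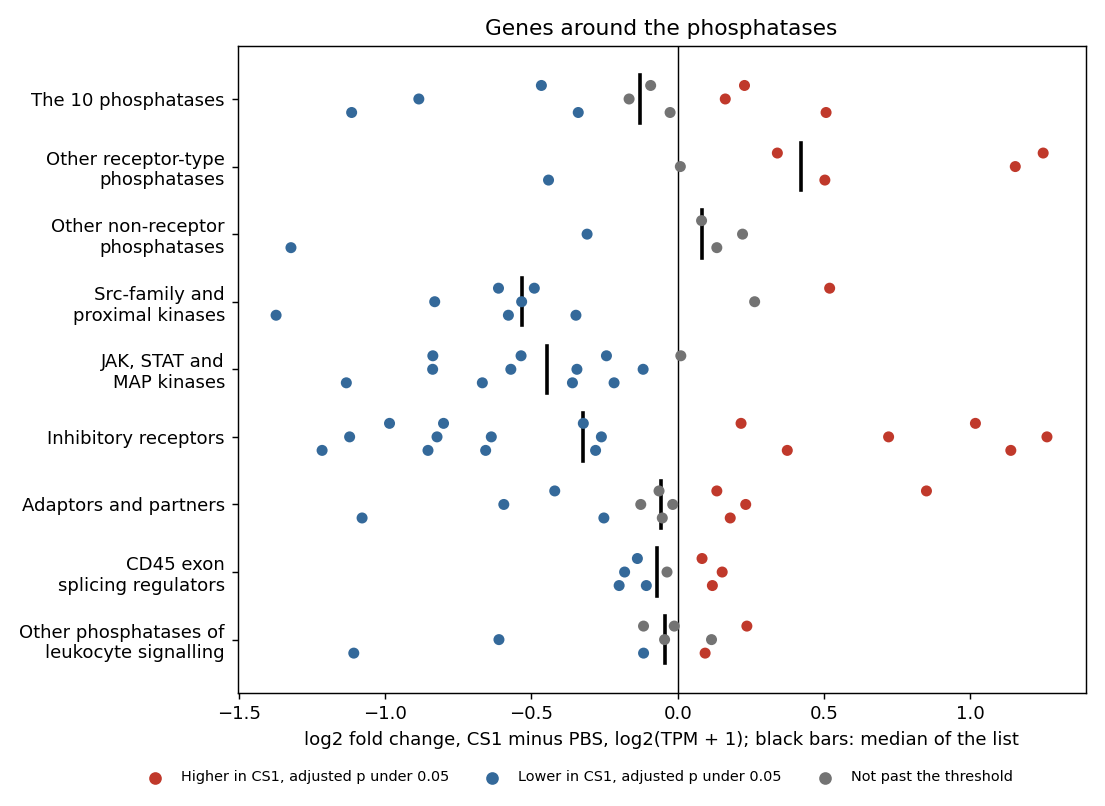
Log2 fold change, CS1 minus PBS on the log2(TPM + 1) scale, of the 10 phosphatase genes and of 8 lists of related genes; each point is a tested gene, red a rise, blue a fall and grey no call, and black bars are list medians. The kinase lists lie mostly to the left (medians -0.53 and -0.45), while the phosphatases spread to both sides (median -0.13).

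The nearest tested protein-coding gene on each side of a member was taken by position. Of the 14 neighbours of the 7 called members, 7 were called in the direction of the member, 5 in the opposite direction and 2 were not called. Over all tested features 35.3% were called higher and 31.6% lower. Some neighbours lay far away, such as Olfr1034 at 4379011 bases from Ptprj and Zfp281 at 1432807 bases from Ptprc. Cebpb, a myeloid transcription factor gene 241638 bases below Ptpn1 in coordinate, also fell, to 609 and 581 TPM in CS1, against 944 and 906 TPM in PBS. Next to Ptpn6, Phb2 lay at a distance of 3756 bases and was not called (log2 fold change 0.07), while Grcc10, at 468 bases, had one of -0.23. Nek7, 307166 bases above Ptprc, had a log2 fold change of -0.44.

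The libraries were checked against markers of the labelled cells and of other cell types. The deposited values summed to 977973 and 978426 in CS1 and to 986084 and 986345 in PBS, and their read depth is not known. The largest difference between replicates for any member was 0.09 on the log2 scale. Fto itself stood at 32.0 and 30.9 TPM in CS1, against 29.5 and 30.9 TPM in PBS (adjusted p = 0.334). For the marker counts below, 35.3% of all tested features were called higher and 31.6% lower. The 10 myeloid markers summed to 13727 and 13799 TPM in CS1, against 19193 and 19308 TPM in PBS, with 3 higher and 6 lower. The lower sum was mainly Lyz2, which encodes lysozyme, at 6193 and 6222 TPM in CS1, against 13128 and 13256 TPM in PBS. Itgam stood at 509 and 504 TPM in CS1, against 976 and 988 TPM in PBS. Cd68 was at 333 and 324 TPM in CS1, against 645 and 650 TPM in PBS. Csf1r had 305 and 305 TPM in CS1, against 508 and 512 TPM in PBS. Spi1 and Ly6c2 were lower by less. Elane and Mpo were among the 3 that moved the other way. Elane, neutrophil elastase, was at 2490 and 2533 TPM in CS1, against 424 and 427 TPM in PBS (log2 fold change 2.56). Mpo, myeloperoxidase, was at 805 and 821 TPM in CS1, against 160 and 163 TPM in PBS (log2 fold change 2.33). T cell markers (7 in the table) summed to 7.58 and 7.70 TPM in CS1, against 11.0 and 11.6 TPM in PBS, and 1 of 4 tested fell. B cell markers summed to 45.5 and 43.6 TPM in CS1, against 70.4 and 67.9 TPM in PBS, with 5 of 6 lower. NK cell markers summed to 0.92 and 1.43 TPM in CS1, against 3.72 and 3.34 TPM in PBS. Only 1 of these 6 markers reached the filter and was tested, and it fell. Dendritic cell markers summed to 443 and 439 TPM in CS1, against 228 and 230 TPM in PBS, all 4 tested being higher; most of the sum was Flt3, which leukaemic progenitors also express. Megakaryocyte markers stayed at 9.73 TPM or less and stromal markers at 3.25 TPM or less in every library, with Pf4 and Ppbp listed at 0.01 throughout. Erythroid markers summed to 41.7 and 14.7 TPM in CS1, against 17.5 and 18.0 TPM in PBS, and Hba-a1 alone ranged from 0.01 to 26.1 TPM between the CS1 libraries. The part of these shifts in the results above was not tested. The sums of the T, B and NK cell markers were lower in CS1, and Ptpn7, Ptpn18 and Ptpn22 were higher. Any link between these values was not tested. Cd33 and Cd22 stand both among these markers and among the inhibitory receptors.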

How the data were processed

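Poly(A) RNA was sequenced from CD45.2-enriched spleen cells, with 2 CS1 and 2 PBS libraries grouped by their titles. STAR, RSEM and mm10 are listed, per the submitters' processing notes, with no versions; the annotation used is not stated. The values deposited by the authors were taken as TPM, from their sums and the mention of RSEM, since the header names no unit; 0.01 is the lowest listed value. Depth is therefore unknown and no counting interval is given. Here log2(TPM + 1) was compared by a two-sided limma test with a variance trend (version 3.58.1 in R 4.3.3) and Benjamini-Hochberg adjustment over the 11866 features that reached 1 TPM in 2 or more libraries; such fold changes understate changes of low genes. The code was tested on simulated data. Coordinates are from GENCODE M21 (GRCm38) and promoters from RefSeq. The members and lists were chosen with earlier results of these data known. All members are named; in each list the 2 called genes with the largest change in each direction, groups apart and at least 5 TPM, are named. A gene that this rule names is not reported here. Alternatives covered pseudocounts (0.1, 5), filters, scaling, the variance trend, the replicate block and leaving out each library.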

Additional observations from a re-analysis of the deposited data

How the results depend on the processing

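Of the 10 members, Ptprc, Ptpre, Ptprj, Ptpn1, Ptpn11, Ptpn7 and Ptpn18 kept their direction and their side of the threshold in all 12 alternatives, with log2 fold changes of -0.91 to -0.74 for Ptprc, -1.14 to -0.99 for Ptpn1 and 0.47 to 0.60 for Ptpn18. After quantile normalization Ptpn2 passed the test (-0.28) and Ptpn6 reversed (0.0835), as it did without CS1 replicate 1 (0.00629; range without single libraries -0.0579 to 0.00629). Quantile normalization gave -0.23 for Ptpre, 0.25 for Ptpn22 and 0.31 for Ptprv, against -0.34, 0.16 and 0.50. With no filter Ptpn22 was lost (0.16, adjusted p = 0.0687). The count of called members ranged from 6 to 9, and that of all features from 5555 (no filter) to 7957 (pseudocount 5), against 7949. With no filter 8 other receptor-type phosphatases, 4 CD45 splicing regulators and 2 other leukocyte phosphatases were called; the filter at 5 TPM gave 3 of the first kind, and the variance trend off gave 4 and 3 of the others. Without single libraries the last count ranged from 2 to 4. The cause was not tested. The differences in share of the summed TPM (CS1 minus PBS) were -7.5 percentage points for Ptprc, 8.26 for Ptpn6 and -7.51 for Ptpn1. After quantile normalization they were -7.13, 8.16 and -7.30. Scaling each library by 1 factor cannot change a share within it. Leaving out 1 of 2 libraries cannot move a difference by more than 1 SD between replicates. Those alternatives therefore could not test the shares. With no filter the calls of Acp1 and Inpp5d were lost too (adjusted p = 0.097 and 0.0662), and that of Inpp5d also with the variance trend off (0.0967). Same-numbered libraries did not deviate together across features (r = 0.02), which cannot exclude a pairing that touches few genes. With the replicate block 7750 features and 7 members were called, and the block changed no call among the members. TPM keeps no depth, so what reads alone would limit is unknown.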
